A study of Homo sapiens with 4 samples.

Results

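The genes described here are 43 genes of the integrated stress response and of amino acid supply. They were chosen by name, as genes of the pathway that the transcription factor ATF4 runs, and they fall into stress transcription factors, stress regulators, enzymes of amino acid and folate synthesis, amino acid transporters, and enzymes of tRNA charging and export. The array carried probes for all 43, among 43311 gene names. Of the 43 genes, 40 were well above background on at least 1 array, as were 17353 of all genes, and 37 were well above background on all 4 arrays. STC2, FGF21 and ALDH1L2 stayed at background throughout, with no array well above it.

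MDS-L is a cell line from a myelodysplastic syndrome, and MDS-L/CDA is its 5-azacytidine (AZA)-resistant derivative, made by transducing CDA, which the study calls cytosine deaminase. Both lines were kept in medium with serum and IL-3 and were treated for 72 h, either with the vehicle, DMSO at 0.1%, or with AZA at 1 μM. Each of the 4 conditions was measured on 1 array, so no difference below has a replicate, an error between cultures or a test. The treatment tags of the MDS-L AZA and the MDS-L/CDA vehicle sample contradict the titles, descriptions and source names of those samples, and the latter were followed here. The titles of the AZA samples give the dose in mM, whereas their source names, the treatment protocol and the study's methods give μM, the unit used here.

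In the integrated stress response, kinases that sense amino acid shortage, heme shortage, unfolded protein or viral RNA phosphorylate the translation factor eIF2, which slows general protein synthesis and favours translation of the ATF4 mRNA. ATF4 pairs with C/EBP and other ATF proteins on C/EBP-ATF response elements and raises transcription of genes that make, import and charge amino acids, as well as of DDIT3 and of regulators that end the response. Because ATF4 is controlled largely at translation, its mRNA and its protein need not move together, and the arrays measured mRNA only.

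Signals are given in scaled intensity units, after each array was brought to a common 75th percentile. A probe was called well above background by the scanner's own flag, which was set for 32.6% to 36.5% of the 58185 probes, and no probe was saturated. Among the 261 to 270 well measured probes printed in 10 spots, the typical SD between spots of 1 array was 0.18 to 0.29 on the log2 scale, a technical spread that does not include culture or RNA. A gene was counted as increased or decreased at a ratio of at least 2. Where the dimmer array was not well above background, the ratio was replaced by a bound against the lowest signal well above background there, written as at least N-fold. Since RNA came from whole cultures, fewer cells that express a gene and less RNA per cell cannot be told apart. The probe named CDA was not well above background in either line (4.98 and 6.60 in MDS-L/CDA), and since the sources used here do not say whether it lies in the transduced sequence, it checks nothing about the label. Of 12 myeloid and progenitor markers, 10 were measured, while MPO and ELANE were not well above background on any array.

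In MDS-L, 7 of the 40 measured genes were increased by AZA, namely ATF5, DDIT4, PPP1R15A, CHAC1, PSAT1, CTH and SLC7A11, and 1 was decreased, MARS. These counts are 17.5% and 2.50% of the genes, against 6.73% and 6.03% of all 17172 genes tested. CHAC1, PSAT1 and NUPR1 were well above background on the MDS-L AZA array alone and so could count only as increased there, and among the 37 genes that passed the background flag with and without AZA in MDS-L, 5 were increased (13.5%), against 4.44% of such genes overall. In MDS-L/CDA, none of 37 was increased and 1 was decreased, SLC38A2, against 2.53% and 3.07% of all 15393 genes tested. With none increased in MDS-L/CDA, none could be increased in both lines, and the share of all genes increased in both was not counted. PPP1R15A passed in both lines when arrays were scaled to the 75th percentile of probes well above background on all 4 arrays. On the log2 scale the 40 genes had a median AZA/vehicle ratio of 0.24 in MDS-L, against -0.13 over all genes, and the 37 had -0.12 in MDS-L/CDA, against 0.01. Over the 37 genes measured on both MDS-L arrays the MDS-L median was 0.18, against -0.16 over all such genes. The position of the MDS-L median of the 40 genes depended on scaling: with each array scaled to its median it was -0.30, against -0.67 over all genes. That scaling shifts every MDS-L log2 ratio by the same -0.54, so the distance of 0.36 between the 40 genes and all genes could not change. The distance was 0.25 with normexp background correction and 0.42 with quantile normalization. CHAC1, DDIT4 and PPP1R15A are among the genes that the study printed as increased on these same arrays, so their counts are not independent evidence, and without them 4 genes (10.8%) were increased in MDS-L. For CHAC1 the study also reported repeated RT-qPCR over a range of doses, with a dose-dependent rise in MDS-L and none in MDS-L/CDA.

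**Figure D1:**
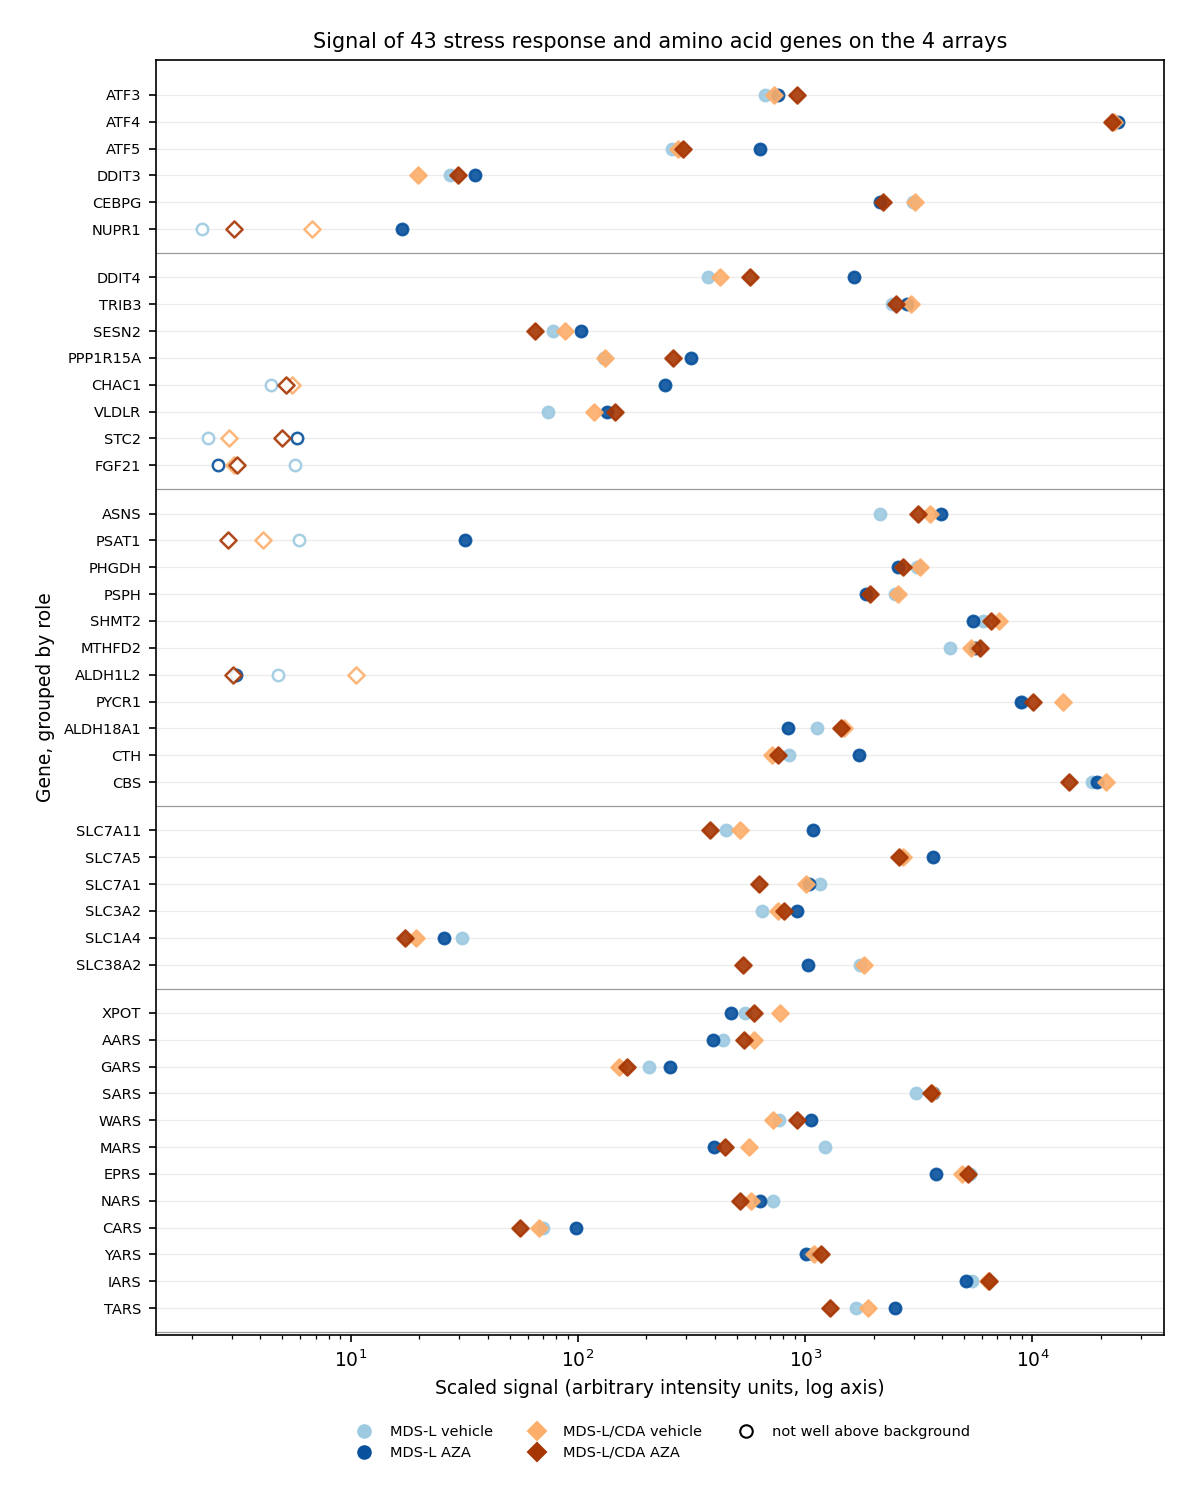
Scaled signal (log axis) of each of the 43 genes on the 4 arrays, in 5 groups by role, with circles for MDS-L, diamonds for MDS-L/CDA, pale colours for vehicle and dark colours for AZA. Open symbols are not well above background. CHAC1 and PSAT1 stand above background on the MDS-L AZA array alone, and ATF4 lies between 22290 and 23830 on all 4.

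The upstream sequences of the genes were read from RefSeq (GRCh38.p14), where 36 of the 43 genes had an entry and PSPH, SHMT2, ALDH1L2, PYCR1, SLC7A11, NUPR1 and YARS had none. The core of the C/EBP-ATF response element, TGATGNAA, was searched on both strands in the 250 bases before each gene start. It was present in 6 of the 36 genes (16.7%) and in 1104 of 35116 promoters overall (3.14%). The 6 genes were ATF3, CHAC1, ASNS, FGF21, AARS and IARS. Of the 6 genes with an entry that AZA increased in MDS-L, 1 held it (CHAC1), as did 5 of the other 30. The stretches around it in the measured genes of this set are given in the direction of transcription, since they place a gene whose mRNA was counted as increased beside 4 with the same core whose mRNA was not. The capitals mark the core, which reads as its reverse complement in CHAC1, AARS and IARS.
CHAC1: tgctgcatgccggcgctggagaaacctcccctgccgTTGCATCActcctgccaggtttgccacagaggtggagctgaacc
ASNS: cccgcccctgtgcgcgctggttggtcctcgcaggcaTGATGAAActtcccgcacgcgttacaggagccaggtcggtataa
ATF3: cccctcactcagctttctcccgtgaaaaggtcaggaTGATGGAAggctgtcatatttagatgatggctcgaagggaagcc
AARS: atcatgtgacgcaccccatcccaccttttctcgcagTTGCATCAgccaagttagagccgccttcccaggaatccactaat
IARS: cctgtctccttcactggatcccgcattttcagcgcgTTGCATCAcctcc
These stretches lie at chr15:40953226-40953305 on the plus strand (CHAC1), chr7:97872433-97872512 on the minus strand (ASNS), chr1:212565180-212565259 on the plus strand (ATF3), chr16:70289650-70289729 on the minus strand (AARS) and chr9:92293698-92293746 on the minus strand (IARS). The core starts 209 bases before the gene start in CHAC1, 68 in ASNS, 191 in ATF3, 187 in AARS and 13 in IARS. A match of letters is a description of the sequence and not a measured binding site.

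Among the 6 stress transcription factors, ATF5 was increased by AZA in MDS-L and none was increased in MDS-L/CDA. ATF4, the central activator, had signals of 23070 and 23830 in MDS-L (vehicle, then AZA) and of 22820 and 22290 in MDS-L/CDA. Its log2 AZA/vehicle ratios of 0.05 and -0.03 were smaller than the SD between spots. ATF5, a related factor whose translation is also favoured when eIF2 is phosphorylated, read 258.9, 630.6, 275.0 and 289.8 in that order, so that the MDS-L AZA array stood apart from the other 3. That is a ratio of 2.44 in MDS-L and of 1.05 in MDS-L/CDA (probe at hg19 chr19:50436754-50436813, on the plus strand).

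DDIT3, which encodes the stress factor CHOP, was dim, with signals of 27.4 and 35.4 in vehicle- and AZA-treated MDS-L and of 19.7 and 29.6 in MDS-L/CDA. Its log2 ratios were 0.37 and 0.58, below the threshold in both lines. The difference between the lines was smaller than the SD between spots on either MDS-L/CDA array (0.24 and 0.29). ATF3, an early stress factor, had ratios of 1.13 and 1.26, and CEBPG, a C/EBP protein that pairs with ATF4, had log2 ratios of -0.49 and -0.46. NUPR1, a small stress-induced cofactor of transcription, was well above background on the MDS-L AZA array alone, at 16.7, which gives a ratio of at least 1.95. The median log2 ratio of the group was 0.28 in MDS-L and 0.08 in MDS-L/CDA. Without NUPR1, the 5 factors measured on both MDS-L arrays had a median of 0.18 there.

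All 6 measured stress regulators had ratios above 1 in MDS-L, against 41.1% of all genes, with a median log2 ratio of 1.06, and 3 of them, CHAC1, DDIT4 and PPP1R15A, were increased. CHAC1 was well above background on the MDS-L AZA array alone, so its ratio could only lie above 1. Over the 5 regulators measured on both MDS-L arrays the median was 0.86, against -0.16 over all such genes. Scaling each array to its median shifted every MDS-L log2 ratio by -0.54, which left 4 of the 6 above 1, with TRIB3 and SESN2 below. CHAC1 and DDIT4 then still passed the threshold and PPP1R15A, at 1.65, did not. CHAC1, which breaks down glutathione, read 4.45 and 241.9 in MDS-L without and with AZA, and 5.51 and 5.19 in MDS-L/CDA. Only the MDS-L AZA value was well above background, so that the AZA/vehicle ratio in MDS-L was at least 28.1 and the signal under AZA was at least 18.1-fold lower in MDS-L/CDA than in MDS-L. The probe lies at hg19 chr15:41248631-41248690, and the other CHAC1 probe, at chr15:41247814-41247873, was not well above background anywhere, with signals of 2.03 to 4.46.

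DDIT4, an inhibitor of the growth kinase complex mTORC1, rose from 372.1 to 1636 in MDS-L, a ratio of 4.40, while its MDS-L/CDA signals were 423.5 and 568.7, a ratio of 1.34 (hg19 chr10:74035363-74035422). PPP1R15A, the phosphatase subunit that removes the phosphate from eIF2 and so ends the response, read 130.7 and 313.7 in MDS-L and 131.9 and 260.9 in MDS-L/CDA (hg19 chr19:49378127-49378901). Its ratios of 2.40 and 1.98 lie on either side of the threshold, and they differed by 0.28 on the log2 scale, which is not more than the SD between spots on the noisiest array. PPP1R15A was thus the gene nearest to an increase in MDS-L/CDA, and it was the only 1 of the 43 genes to pass there when arrays were scaled on detected probes.

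VLDLR, a lipoprotein receptor, had ratios of 1.81 in MDS-L and 1.23 in MDS-L/CDA. SESN2, which restrains mTORC1 when leucine is short, had 103.5 against 77.8 in MDS-L and 64.8 against 87.4 in MDS-L/CDA, and TRIB3, a pseudokinase that binds ATF4, had log2 ratios of 0.23 and -0.22. These 2 genes thus had ratios above 1 in MDS-L and below 1 in MDS-L/CDA, all under the threshold. STC2 and FGF21, which encode secreted proteins, gave signals of 2.36 to 5.83 and 2.62 to 5.66 and no ratio.

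Of the 10 measured enzymes of amino acid and folate synthesis, PSAT1 and CTH were increased in MDS-L, 5 had ratios above 1 and 5 below, and the median log2 ratio was 0.02. Without PSAT1, the 9 enzymes measured on both MDS-L arrays had a median of -0.02. In the serine pathway, whose enzymes act in the order PHGDH, PSAT1 and PSPH, the members did not move together. PSAT1 read 5.94 and 31.97 in MDS-L and 4.09 and 2.89 in MDS-L/CDA and was above background on the MDS-L AZA array alone, a ratio of at least 3.72 (hg19 chr9:80944778-80944837), whereas the brightly measured PHGDH and PSPH had log2 ratios of -0.28 and -0.42 in MDS-L and of -0.25 and -0.41 in MDS-L/CDA. The PSAT1 bound fell to 1.49 when the background was corrected by normexp. CTH, which releases cysteine in the transsulfuration pathway, read 851.1 and 1716 in MDS-L and 713.7 and 762.3 in MDS-L/CDA, ratios of 2.02 and 1.07 (hg19 chr1:70905041-70905100), and lay just inside the threshold.

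ASNS, which makes asparagine and is a classic ATF4 target, lay just outside it. Its signals were 2135 and 3975 in MDS-L and 3544 and 3147 in MDS-L/CDA, ratios of 1.86 and 0.888. The lowest value was thus that of untreated MDS-L, and the MDS-L AZA signal exceeded that of untreated MDS-L/CDA by a smaller step. ASNS passed the threshold in MDS-L when the arrays were quantile normalized, in the authors' value table, and when they were scaled to detected or to spike-in probes.

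CBS, which makes the substrate of CTH, had log2 ratios of 0.06 in MDS-L and -0.54 in MDS-L/CDA. The mitochondrial folate enzymes MTHFD2 and SHMT2 had log2 ratios of 0.36 and -0.14 in MDS-L and of 0.14 and -0.12 in MDS-L/CDA, and ALDH1L2 of the same pathway gave no ratio. The proline enzymes ALDH18A1 and PYCR1 had -0.42 and -0.02 in MDS-L and -0.04 and -0.44 in MDS-L/CDA. None of these reached the threshold in either line.

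Among the 6 amino acid transporters, SLC7A11 was increased in MDS-L and SLC38A2 was decreased in MDS-L/CDA. SLC7A11, the transport subunit that imports cystine in exchange for glutamate, read 449.5 and 1079 in MDS-L and 515.3 and 382.4 in MDS-L/CDA, log2 ratios of 1.26 and -0.43 (hg19 chr4:139085433-139085492, minus strand). Its MDS-L AZA signal was the highest of the 4, and the other 3 lay between 382.4 and 515.3. SLC3A2, the heavy chain that partners SLC7A11 and SLC7A5, had log2 ratios of 0.52 and 0.09, and SLC7A5, an importer of large neutral amino acids, had 0.44 and -0.06, both under the threshold.

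SLC38A2, an importer of glutamine and other small neutral amino acids, read 1747 and 1030 in MDS-L and 1808 and 534.9 in MDS-L/CDA on its brighter probe, 1.70-fold and 3.38-fold lower under AZA (hg19 chr12:46752710-46752769). The other SLC38A2 probe, at chr12:46754625-46754684, gave 695.7 and 505.4 in MDS-L and 745.8 and 551.0 in MDS-L/CDA, 1.38-fold and 1.35-fold lower. Both probes had lower signals under AZA in both lines, and the decrease past the threshold rested on the brighter probe. SLC7A1, an importer of cationic amino acids, had log2 ratios of -0.16 and -0.68, and SLC1A4, a carrier of small neutral amino acids, had -0.26 and -0.16. The median log2 ratio of the transporters was 0.14 in MDS-L and -0.30 in MDS-L/CDA.

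None of the 12 genes of tRNA charging and export was increased in either line, and their median log2 ratio was -0.09 in MDS-L and -0.08 in MDS-L/CDA. MARS, the methionyl-tRNA synthetase, read 1222 in MDS-L vehicle and 397.2, 568.0 and 442.7 on the other 3 arrays, so that the MDS-L vehicle value stood apart. It was 3.08-fold lower under AZA in MDS-L and 2.15-fold lower in vehicle-treated MDS-L/CDA than in vehicle-treated MDS-L. This probe lies at hg19 chr12:57910373-57910432, on the plus strand and close to the minus-strand DDIT3 probe, which spans chr12:57911200-57911526. The other MARS probe, at chr12:57884057-57884116, gave 55.9, 76.9, 63.6 and 69.1, a log2 ratio of 0.46 in MDS-L, so that the 2 probes differed in sign and the decrease was not found with the median over probes.

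TARS, the threonyl-tRNA synthetase, read 1675 and 2485 in MDS-L and 1880 and 1290 in MDS-L/CDA, log2 ratios of 0.57 and -0.54. The other synthetases had log2 ratios between -0.51 (EPRS) and 0.48 (CARS) in MDS-L. These were WARS, GARS and SARS, with 0.47, 0.30 and 0.25, and AARS, NARS, YARS and IARS, with -0.15, -0.19, -0.09 and -0.09. In MDS-L/CDA they lay between -0.27 (CARS) and 0.35 (WARS). The tRNA exporter XPOT had log2 ratios of -0.21 and -0.38.

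**Figure D2:**
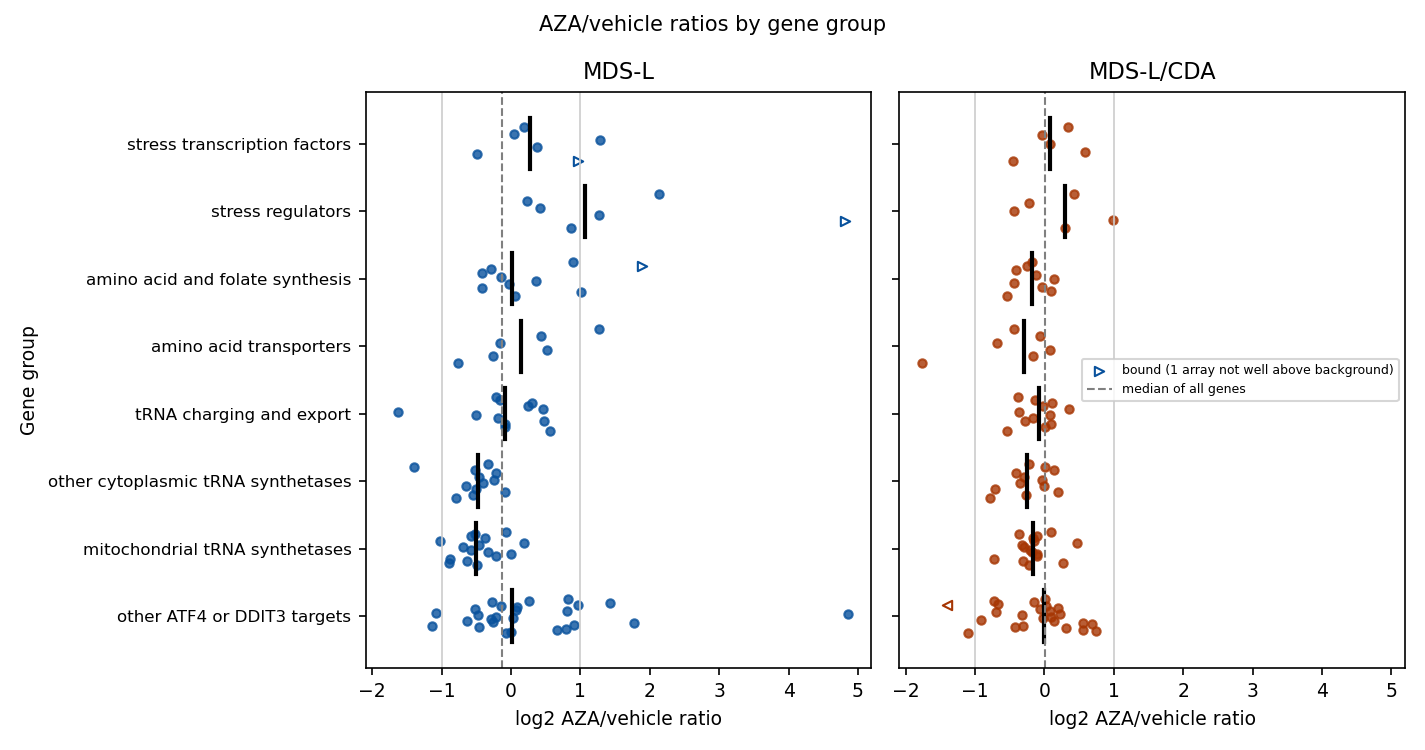
Log2 AZA/vehicle ratio of each measured gene in MDS-L (left) and MDS-L/CDA (right), for the 5 groups by role and for 3 lists of related genes, with thick bars at the median of the group, a dashed line at the median of all genes and grey lines at a ratio of 2 in either direction. Open triangles are bounds. In MDS-L the stress regulators have the highest median (1.06, or 0.86 over the 5 measured on both MDS-L arrays). The tRNA synthetases outside the 43 genes have lower medians (-0.48 and -0.50) than those inside (-0.09).

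The ratios of the 37 genes measured on all 4 arrays were then compared between the lines, whose AZA/vehicle ratios share no array. The ratio was larger in MDS-L for 23 of the 37 genes (62.2%), against 37.2% of all 13962 genes measured on all 4 arrays, and the median difference was 0.22 on the log2 scale, against -0.16. With each array scaled to its median this difference was -0.26, against -0.64 over all genes. All 5 measured regulators and 5 of 6 transporters had the larger ratio in MDS-L, as did 2 of 5 transcription factors, 5 of 9 synthesis enzymes and 6 of 12 genes of tRNA charging and export. These counts depend on scaling and were not recomputed. With each array scaled to its median, genes with a small difference, such as PPP1R15A at 0.28, would change side.

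The ratio was at least 2-fold larger in MDS-L for 5 genes (13.5%, against 3.90% of all genes), with log2 differences of 1.71 for DDIT4, 1.69 for SLC7A11, 1.21 for ATF5, 1.11 for TARS and 1.07 for ASNS. It was at least 2-fold smaller for 1 (2.70%, against 6.15% of all genes), MARS, at -1.26. SLC38A2 and CTH, at 0.99 and 0.92, came next after ASNS. Scaling each array to its median would lower all these differences. ATF5, TARS and ASNS would then fall below 2-fold larger, and EPRS, at -0.59 here, would be at least 2-fold smaller. The signal of SLC38A2 was lower under AZA in both lines, so its value is a smaller decrease in MDS-L. The values of MARS and SLC38A2 rest on the brightest probe. The other MARS probe had log2 ratios of 0.46 in MDS-L and 0.12 in MDS-L/CDA, and the other SLC38A2 probe had -0.46 and -0.44. DDIT3 and ATF3, at -0.21 and -0.15, had the larger ratio in MDS-L/CDA, by less than the SD between spots on either MDS-L/CDA array. PHGDH, PSPH, SHMT2, AARS, CEBPG and NARS had ratios in the 2 lines that differed by at most 0.04.

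**Figure D3:**
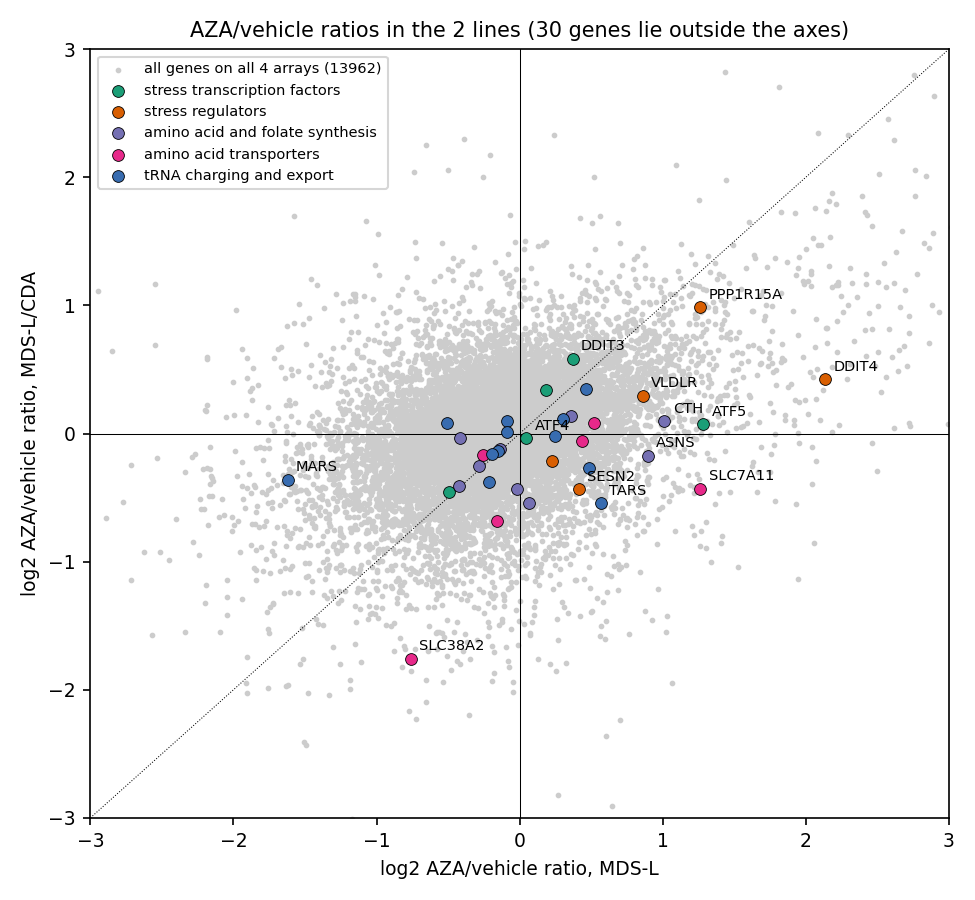
Log2 AZA/vehicle ratio in MDS-L (horizontal) against MDS-L/CDA (vertical) of the 37 genes measured on all 4 arrays, coloured by role, over all 13962 such genes in grey, with a dotted line where both ratios are equal. SLC7A11, ATF5, CTH and ASNS lie to the right and at log2 ratios of 0.10 or less in MDS-L/CDA, DDIT4 lies farthest to the right of the 37, at 0.42 in MDS-L/CDA, PPP1R15A lies near the dotted line, and 30 genes lie outside the axes.

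Without AZA, none of 37 genes was higher in MDS-L/CDA and 1 was lower, MARS, against 1.97% and 2.64% of all 16015 genes tested, and the median log2 ratio was 0.09, against 0.07 over all genes. The highest ratios of MDS-L/CDA over MDS-L in vehicle were those of ASNS (1.66), VLDLR (1.59) and PYCR1 (1.51), all under the threshold. Ratios above 1 were found for 5 of 5 regulators, 8 of 9 synthesis enzymes, 3 of 5 transcription factors, 3 of 6 transporters and 6 of 12 genes of tRNA charging and export, in all 67.6% of the 37 genes, against 57.4% of all genes.

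Under AZA, none of 40 genes was higher in MDS-L/CDA than in MDS-L and 6 were lower, against 5.43% and 5.23% of all 16739 genes tested. The 6 (15.0%) were ATF5 (2.18-fold), CTH (2.25-fold), SLC7A11 (2.82-fold), DDIT4 (2.88-fold), PSAT1 (at least 2.39-fold) and CHAC1 (at least 18.1-fold). CHAC1, PSAT1 and NUPR1 were well above background on the MDS-L AZA array alone and so could count only as lower here. Among the 37 genes well above background on both AZA arrays, 4 were lower (10.8%), against 3.91% of such genes overall. This comparison shares the MDS-L AZA array with the AZA/vehicle comparison in MDS-L, so it does not stand as a separate measurement of that array. PPP1R15A, the other gene increased by AZA in MDS-L, had a log2 ratio of -0.27. Of the 37 genes on all 4 arrays, 16 (43.2%) were brightest on the MDS-L AZA array, against 16.01% of all genes. These shares depend on scaling and were not recomputed. Scaling each array to its median shifts every MDS-L log2 ratio by -0.54. Genes among the 16 with a smaller ratio, such as ATF4 at 0.05, would then be brighter in MDS-L vehicle.

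Related genes outside the 43 were taken from 9 lists, with 150 entries on the array in all, of the pathway itself and of other stress responses. Their counts stand beside 6.73% of all genes increased and 6.03% decreased in MDS-L, and 2.53% and 3.07% in MDS-L/CDA. Among 17 measured genes of the kinases of eIF2, of eIF2, of its exchange factor and of proteins that act on eIF2 or its kinases, 1 was increased and 2 were decreased in MDS-L, with a median log2 ratio of -0.18. EIF2S1, the alpha subunit that is phosphorylated, fell from 201.5 to 70.7 in MDS-L and read 162.0 and 132.7 in MDS-L/CDA. EIF2S3, the gamma subunit, rose from 22.5 to 49.9 in MDS-L and by at least 2.99-fold in MDS-L/CDA, where it read 36.9 under AZA and was not well above background in vehicle. PPP1R15B, the constitutive counterpart of PPP1R15A, was 2.05-fold lower in MDS-L.

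Of 26 other measured genes known as targets of ATF4 or DDIT3, 3 were increased and 2 decreased in MDS-L, against 6.73% and 6.03% of all genes. Their median log2 ratio was 0.01, and 13 lay on either side of 1. The largest ratio was that of SLC6A9, a glycine transporter, which read 11.6 and 338.5 in MDS-L, a ratio of 29.1, and was at background in MDS-L/CDA with either treatment. HMOX1, which degrades heme, rose 3.40-fold in MDS-L and had a ratio of 1.47 in MDS-L/CDA. ERO1L, an oxidase of protein folding, and MTHFD1L, a mitochondrial folate enzyme, were 2.20-fold and 2.12-fold lower in MDS-L.

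None of the tRNA synthetases outside the 43 genes was increased. All 12 measured cytoplasmic members, scaffold proteins included, had ratios below 1 in MDS-L, with a median log2 ratio of -0.48 and 1 decreased, LARS (2.64-fold), and the 16 mitochondrial synthetases had a median of -0.50 with 1 decreased, FARS2 (2.04-fold). Among 17 neighbours in serine, folate, proline and transsulfuration metabolism, 1 was increased, PRODH, which degrades proline (at least 2.70-fold), and 2 were decreased, among them GCSH (2.04-fold), a protein of glycine cleavage. Of 11 other amino acid transporters, none was increased and 1 was decreased, in MDS-L, the glutamate importer SLC1A3 (at least 4.25-fold), which was also decreased in MDS-L/CDA (2.02-fold).

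Lists of other stress responses were counted in the same way, beside the same shares of all genes (6.73% increased and 6.03% decreased in MDS-L, 2.53% and 3.07% in MDS-L/CDA). Of 16 genes of the unfolded protein response of the endoplasmic reticulum, the sensor ERN1 was increased (2.14-fold) and the folding enzyme PDIA4 decreased (2.47-fold) in MDS-L, and none was called in MDS-L/CDA. Of 9 genes of the oxidative stress factor NRF2, 2 were increased in MDS-L, HMOX1 and OSGIN1 (2.50-fold), with a median log2 ratio of 0.73, and none of 8 in MDS-L/CDA. Of 12 genes known as p53 targets, 4 were increased in MDS-L and 3 of 11 in MDS-L/CDA. Only 10 of the 12 were measured on both MDS-L arrays, and 9 of the 11 on both MDS-L/CDA arrays. The others could count in 1 direction only. TP53INP1 and BTG2, both p53 targets, rose 7.43-fold and 4.63-fold in MDS-L and 6.21-fold and 3.46-fold in MDS-L/CDA.

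Markers of blood lineages moved on the array on which the 7 genes were increased. Of all genes tested, 6.73% were increased and 6.03% decreased in MDS-L, and 2.53% and 3.07% in MDS-L/CDA. Of 10 measured myeloid and progenitor markers, 2 were increased in both lines, KIT (47.3-fold in MDS-L and 3.58-fold in MDS-L/CDA) and GATA2 (2.46-fold and 2.01-fold), and CD38 was decreased in MDS-L (2.79-fold), with a summed signal of 9718 to 11440. Of 11 measured erythroid and megakaryocytic markers, 6 were increased by AZA in MDS-L and 3 of 8 in MDS-L/CDA. The number well above background was 7 of 13 on MDS-L vehicle, 11 on MDS-L AZA and 7 on both MDS-L/CDA arrays. Only 7 of the 11 were measured on both MDS-L arrays, with a median log2 ratio of 0.58, and the others could count only as increased there. The summed signal was 7372, 5950, 7825 and 6996, and GYPB and PF4 were not well above background on any array. Of 5 measured lymphoid markers, 3 were increased in MDS-L and none of 4 in MDS-L/CDA. Only 3 of the 5 were measured on both MDS-L arrays, with a median log2 ratio of -0.39, against 2.05 over all 5. The others could count only as increased in MDS-L. The summed signal was 863.3 to 991.8, and CD3E, CD8A and MS4A1 were not well above background. Of 8 stromal or epithelial markers, only KRT8 and KRT18 were measured and neither was increased. The part of these markers in the increases of the 7 genes was not tested.

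For 6 of the 43 genes, several probes were measured on both MDS-L arrays, and in 3 of them (PYCR1, SLC38A2 and IARS) all probes lay on the same side of 1. The 3 measured ATF3 probes had log2 ratios from -0.28 to 0.92. The highest was that of the probe at hg19 chr1:212788502-212788561, which read 19.8 and 37.3 in MDS-L and 23.7 and 44.5 in MDS-L/CDA, ratios of 1.89 and 1.88. The ATF3 value thus depended on the probe by more than the ratio of its brightest probe. Of the 7 genes increased in MDS-L, CHAC1 alone had more than 1 probe.

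**Figure D4:**
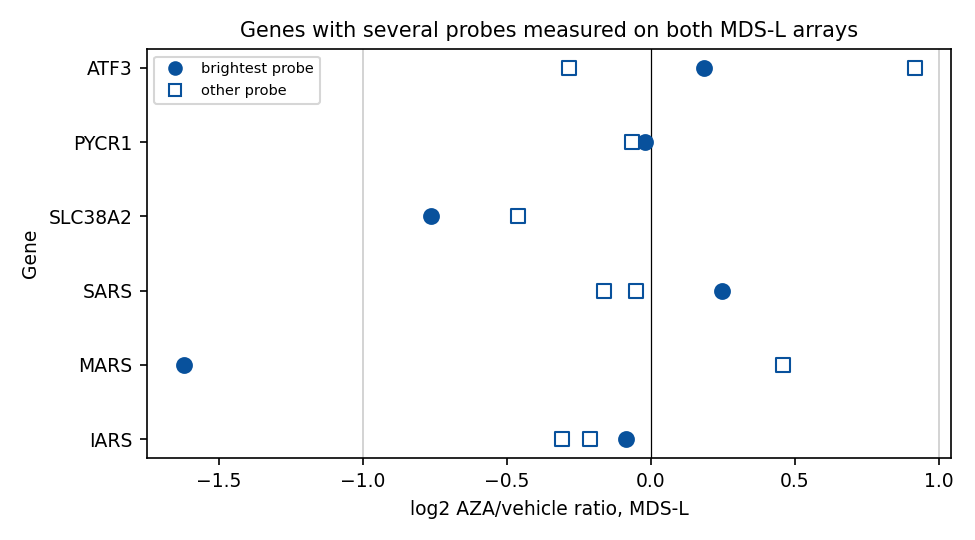
Log2 AZA/vehicle ratio in MDS-L of each probe of the 6 genes with several probes measured on both MDS-L arrays, with filled circles for the brightest probe, open squares for the others and grey lines at a ratio of 2 in either direction. The MARS probes lie at -1.62 and 0.46, and the ATF3 probes span -0.28 to 0.92.

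The calls in MDS-L were recomputed under 7 other ways of scaling or correcting the arrays. These 7 ways are not separate checks, since all reuse the same 2 arrays. The authors' value table is itself quantile normalized, and scaling each array by 1 factor shifts all ratios alike. DDIT4 and CHAC1 passed the threshold under all 7, with ratios of DDIT4 from 3.02 to 5.10 and bounds of CHAC1 from 5.10 to 31.9. ATF5, CTH, PPP1R15A and SLC7A11 passed under 6 of the 7, the exception being the median of all probes, where they read 1.67, 1.39, 1.65 and 1.65. No call of these 7 genes changed direction. The decreases of MARS in MDS-L and of SLC38A2 in MDS-L/CDA, on the brightest probe, also passed under all 7.

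**Figure D5:**
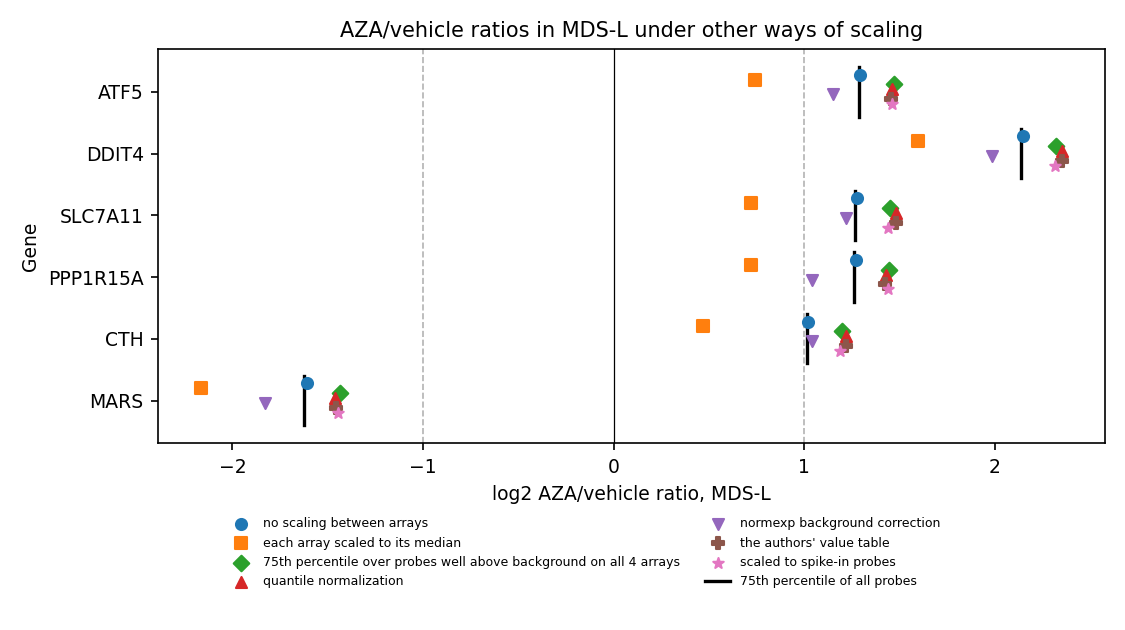
Log2 AZA/vehicle ratio in MDS-L of the 6 called genes measured on both MDS-L arrays, with a black bar for the 75th percentile of all probes, a symbol for each of 7 other ways of scaling or correcting and dashed lines at a ratio of 2 in either direction. Scaling to the median (squares) shifts every gene to the left, and DDIT4 and MARS stay past the dashed lines in all.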

How the data were processed

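Total RNA from 4 cultures was hybridized to 1-colour (Cy3) Agilent arrays on 1 slide. The authors deposited scanner files of Feature Extraction 10.7.1.1, with a processed intensity corrected for background within each array and no further, and a value table of intensity that is quantile normalized, judged from its sorted columns. The probe coordinates are hg19, per the file headers.

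Control spots, outlier spots and 16 probes flagged on an array were left out, spots of a probe were averaged as log2 intensity, each array was scaled to its 75th percentile, and the brightest probe stood for a gene. All 43 genes are named, and those with a ratio or bound of at least 2 in any comparison, with ATF4, DDIT3 and ASNS, are described in full. From each related list at most the 2 genes with the largest ratio in each direction are named. With 1 array per condition no test was possible, and the number of arrays limits the precision. The genes, lists and threshold were chosen with earlier results of these data known. The calling steps were tested on simulated data with changes larger than the threshold, in bright genes only. That test does not cover ratios near the threshold or bounds. Python 3.11.15, pandas 2.3.3, R 4.3.3 and limma 3.58.1 (normexp, offset 50) were used. Alternatives changed the scaling, background correction, filter, probe choice and threshold. Scaling to spike-in probes, leaving out the 3 genes the study printed and using mRNA probes alone were added after seeing the data.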

Additional observations from a re-analysis of the deposited data

How the results depend on the processing

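Counts that moved by more than 1.5 times are given with their share of the tested genes of this set against the share of all genes. Medians that moved by more than the SD between spots are given with the value over all genes in parentheses. Without scaling, 14 genes were lower in MDS-L/CDA under AZA (35.0% against 13.2%) and 2 in vehicle (5.41% against 6.82%). The median log2 ratios were then -0.74 (-0.34) and -0.28 (-0.30). With arrays scaled to their median, 3 genes were increased (7.5% against 3.28%) and 4 decreased (10.0% against 25.2%) in MDS-L, with a median of -0.30 (-0.67). In MDS-L/CDA vehicle 2 were then lower (5.41% against 10.6%), with a median of -0.44 (-0.45), and the difference between lines was -0.26 (-0.64). With the 75th percentile of detected probes, 1 was increased in MDS-L/CDA (2.7% against 2.70%). With no filter, 2 were decreased in MDS-L (4.65% against 5.11%) and 3 in MDS-L/CDA (6.98% against 4.90%). In MDS-L/CDA vehicle 2 were then higher (4.65% against 9.06%). The median over probes left 0 decreased in MDS-L (0.0% against 5.65%) and 0 lower in MDS-L/CDA vehicle (0.0% against 2.33%). The other MARS probe reversed the MARS log2 ratio in MDS-L to 0.46. At 1.5-fold, 2 were decreased in MDS-L (18.1%), 2 increased (9.32%) and 2 decreased (9.60%) in MDS-L/CDA, 3 higher (7.96%) and 2 lower (7.81%) in MDS-L/CDA vehicle, and 1 higher (20.3%) and 12 lower (11.1%) under AZA. At 3-fold, 3 were increased in MDS-L (7.5% against 3.17%). In MDS-L/CDA 1 was then lower under AZA (2.5% against 2.06%) and 0 in vehicle (0.0% against 0.637%). Scaling to spike-in probes left 0 lower in vehicle (0.0% against 2.00%). Without the 3 genes printed by the study, 4 were increased in MDS-L (10.8% against 6.73%). The causes were not tested. A further 218 recomputed values moved less, 5 to 10 genes being increased in MDS-L in those settings. The threshold settings give no medians. Probes near background (CHAC1, PSAT1 and NUPR1 outside the MDS-L AZA array) allow bounds alone, and no replicate allows an error.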
